A study of Mus musculus with 18 samples.

Results

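Oxidative phosphorylation is carried out by 5 protein complexes of the inner mitochondrial membrane, and the nuclear genes for their subunits were followed here through wild-type and TET-deficient mouse cells induced towards primordial germ cell-like cells (PGCLCs). The genes were taken by symbol alone: names beginning Ndufa, Ndufb, Ndufc, Ndufs or Ndufv with a number, Sdha to Sdhd, names beginning Uqcr, the Cox subunit families and names beginning Atp5. This gave 88 of the 25239 genes in the count table, of which 40 were placed in complex I, 4 in complex II, 8 in complex III, 19 in complex IV and 17 in complex V. The complex was taken from the beginning of the symbol alone, so Ndufa4, Ndufa4l2 and some pseudogene entries were also placed by name. The rule took no account of any measured value. A filter on low counts left 81 of the 88 for testing, among 16582 genes in all, and the other 7 are accounted for at the end.

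RNA sequencing after depletion of ribosomal RNA was done on 18 libraries in 9 groups of 2. All cells derived from the E14Tg2a mouse embryonic stem cell line. Wild-type cells were compared with cells lacking Tet1, Tet2 and Tet3 (TKO), whose open reading frames had been excised with CRISPR/Cas9, and the TKO cells were a single clone. Epiblast-like cells (EpiLCs, day 0) had been treated with Activin A and Fgf for 44 hours. Aggregates were then kept in GK15 medium with or without the PGCLC cytokines BMP4, BMP8a, SCF, LIF and EGF. For the wild type the groups were EpiLCs, day 2 without cytokines, day 6 without cytokines and day 6 with cytokines. For TKO they were EpiLCs and aggregates at days 2 and 6, each with and without cytokines. A legend of the study states that SSEA1+/CD61+ cells were sorted from one group, the wild-type aggregates given cytokines at the later stage, and that the other aggregates were used whole. In comparisons with the sorted cells, sorting and condition cannot be told apart. The study calls its RNA-seq replicates biological. The labels of the 2 libraries of a group did not say whether they came from separate cultures, and p-values measure the spread between these libraries. In whole aggregates a smaller share of one cell type and less RNA per cell cannot be told apart.

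As background, complex I takes electrons from NADH, complex II oxidises succinate, complex III passes electrons from ubiquinol to cytochrome c, complex IV reduces oxygen, and complex V is the ATP synthase that uses the resulting proton gradient. Complexes I, III, IV and V also contain subunits encoded by mitochondrial DNA, which are not considered here, so the nuclear genes describe only a part of each complex. Several complex IV subunits exist as a widely used isoform and a tissue isoform of muscle, lung or testis. Pluripotent cells change their balance of glycolysis and respiration between the naive and primed states, which makes these genes of interest in germ cell induction.

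Library totals ranged from 11286050 to 41257861 assigned counts, of which the ribosomal precursor Rn45s took 16.2% to 47.6%. The Rn45s share was 16.2% to 20.9% in the 4 TKO libraries without cytokines and 31.7% to 37.3% in the 4 TKO libraries with them. Tet1 was lower in TKO than in wild-type EpiLCs (851.8 against 6131 normalised counts, log2 fold change -2.82 ± 0.33 SE, adjusted p = 0.000216), and Tet3 was lower as well (145.2 against 919.9, log2 fold change -2.64 ± 0.32, adjusted p = 0.00022). Tet2 was at 67 against 155.7 and did not pass (adjusted p = 0.141). Summed naive pluripotency markers were 1110 to 6580 normalised counts in the 4 EpiLC libraries, 25600 to 52700 in all 8 TKO aggregate libraries, 40000 and 44100 in wild-type day 6 cells with cytokines, and 175 and 422 in wild-type day 6 aggregates without cytokines. Those last aggregates were led by neural markers, which summed to 53000 and 38300 against 1070 to 6490 in the other 16 libraries. Summed PGC markers were highest in the sorted wild-type cells, at 18000 and 15300, against 4350 to 10200 in TKO aggregates.

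The regulatory sequence before the start sites is shown for 5 genes on which later results turn: Cox6b2 and Cox7a1, testis and muscle isoforms; Cox7a2, the common counterpart of Cox7a1; and Cox6a1 and Atp5e, which changed with cytokines in TKO cells. These are the 250 bases upstream of the RefSeq start (GRCm38.p6, the sequence named mm10 in the files), written 5′ to 3′ on the gene's strand. Capitals mark matches, on either strand, to the core letters GCGCATGCG (nuclear respiratory factor 1, NRF1) or CCGGAAG (ETS factors such as GABPA). Adjacent matches to the NRF1 letters on both strands share most of their bases and form 1 run.

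Cox6b2, chr7:4753095-4753344, minus strand: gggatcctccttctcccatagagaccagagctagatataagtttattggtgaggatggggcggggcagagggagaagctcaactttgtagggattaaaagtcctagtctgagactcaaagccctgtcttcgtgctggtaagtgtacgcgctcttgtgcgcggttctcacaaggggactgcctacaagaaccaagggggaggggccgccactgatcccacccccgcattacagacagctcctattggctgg
Cox7a1, chr7:30183921-30184170, plus strand: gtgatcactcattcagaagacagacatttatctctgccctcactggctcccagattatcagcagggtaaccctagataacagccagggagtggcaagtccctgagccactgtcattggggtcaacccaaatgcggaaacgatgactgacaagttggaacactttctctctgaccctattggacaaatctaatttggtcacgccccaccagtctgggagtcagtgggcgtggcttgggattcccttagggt
Cox7a2, chr9:79759854-79760103, minus strand: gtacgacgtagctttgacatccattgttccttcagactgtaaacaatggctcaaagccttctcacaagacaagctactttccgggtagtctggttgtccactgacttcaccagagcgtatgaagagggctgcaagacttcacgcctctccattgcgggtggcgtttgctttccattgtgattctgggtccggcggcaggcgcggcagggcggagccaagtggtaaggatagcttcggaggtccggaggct
Cox6a1, chr5:115348959-115349208, minus strand: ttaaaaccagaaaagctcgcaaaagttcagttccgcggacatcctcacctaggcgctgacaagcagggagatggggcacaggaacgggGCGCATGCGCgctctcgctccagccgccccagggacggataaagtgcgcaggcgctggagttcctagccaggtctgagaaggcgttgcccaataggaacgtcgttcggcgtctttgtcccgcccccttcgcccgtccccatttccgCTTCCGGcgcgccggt
Atp5e, chr2:174464102-174464351, minus strand: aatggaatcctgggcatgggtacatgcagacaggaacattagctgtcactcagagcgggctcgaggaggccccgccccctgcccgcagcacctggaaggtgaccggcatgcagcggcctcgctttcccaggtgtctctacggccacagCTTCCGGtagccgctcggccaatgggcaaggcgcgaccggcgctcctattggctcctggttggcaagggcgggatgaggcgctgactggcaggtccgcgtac

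Cox6b2, Cox7a1 and Cox7a2 held neither motif in these windows, Cox6a1 held both, and Atp5e held the ETS letters. Over the 68 members with a RefSeq window, the NRF1 letters were found before 6 (8.82%) and the ETS letters before 12 (17.6%). The same letters were found before 2.98% and 13.5% of the 12935 tested genes with a window, and before 1.64% and 7.83% of all 27025 genes in the sequence table. AAGATGGCG (YY1) and TCAAGGTCA (oestrogen-related receptors) were each found before 1 member, or 1.47%, against 1.18% and 0.286% of tested genes. The members had a median of 14 CpG dinucleotides in the window and the tested genes a median of 15. Cox7a1 had 4 CpGs and Cox6b2 had 8, below the 14 of Cox7a2, the 19 of Atp5e and the 26 of Cox6a1. Of the 15 members with a window that rose with cytokines in TKO cells at day 2, 1 held the NRF1 letters and 3 the ETS letters.

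Together the 88 genes took 0.724% to 1.33% of the counts other than Rn45s. Complex V took the largest part in every library, at 0.292% to 0.578%, followed by complex I at 0.197% to 0.368%. On a scale of normalised counts per kilobase of exon, Atp5b, the catalytic beta subunit of ATP synthase, was the highest in wild-type EpiLCs at 12900, ahead of Cox4i1 at 8030, the alpha subunit Atp5a1 at 7850 and the small epsilon subunit Atp5e at 7640. Succinate dehydrogenase was lower on that scale, with Sdha at 1170, Sdhb at 1190, Sdhc at 467 and Sdhd at 930. Some of the complex I core subunits carry the flavin or iron-sulfur clusters. Among the core subunits Ndufv1 was at 1720, Ndufs7 at 1290, Ndufs8 at 920, Ndufs1 at 881, Ndufv2 at 785 and Ndufs3 at 648. In complex III the core protein Uqcrc1 was at 2810, the Rieske protein Uqcrfs1 at 1310 and Uqcrc2 at 765.

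Before any comparison, the 2 wild-type day 6 libraries without cytokines stood apart from each other. Of the 81 tested genes, 78 were higher in replicate 2 than in replicate 1, with a median log2 ratio of 0.97, whereas the median over all genes was -0.08. Their share of counts was 0.724% in replicate 1 and 1.33% in replicate 2, the lowest and the highest of the series. In the same pair the cytosolic ribosomal protein genes differed by a median of 1.156, the mitochondrial ribosomal protein genes by 0.80 and 298 other genes as short as a typical member by 0.56. Among the other 8 groups the largest gaps were -0.32 in TKO day 6 with cytokines, where 9 of 81 genes were higher in replicate 2, and 0.26 in TKO day 6 without cytokines, where 73 were. Marker sums also differed in the wild-type day 6 pair without cytokines, given here for replicate 1 and then replicate 2. They were 119 and 1370 for endoderm markers, 1410 and 644 for PGC markers and 8580 and 4640 for the Tet genes. Results that use the wild-type day 6 group without cytokines are therefore given with and without each of its libraries, and what set the libraries apart was not tested.

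**Figure D1:**
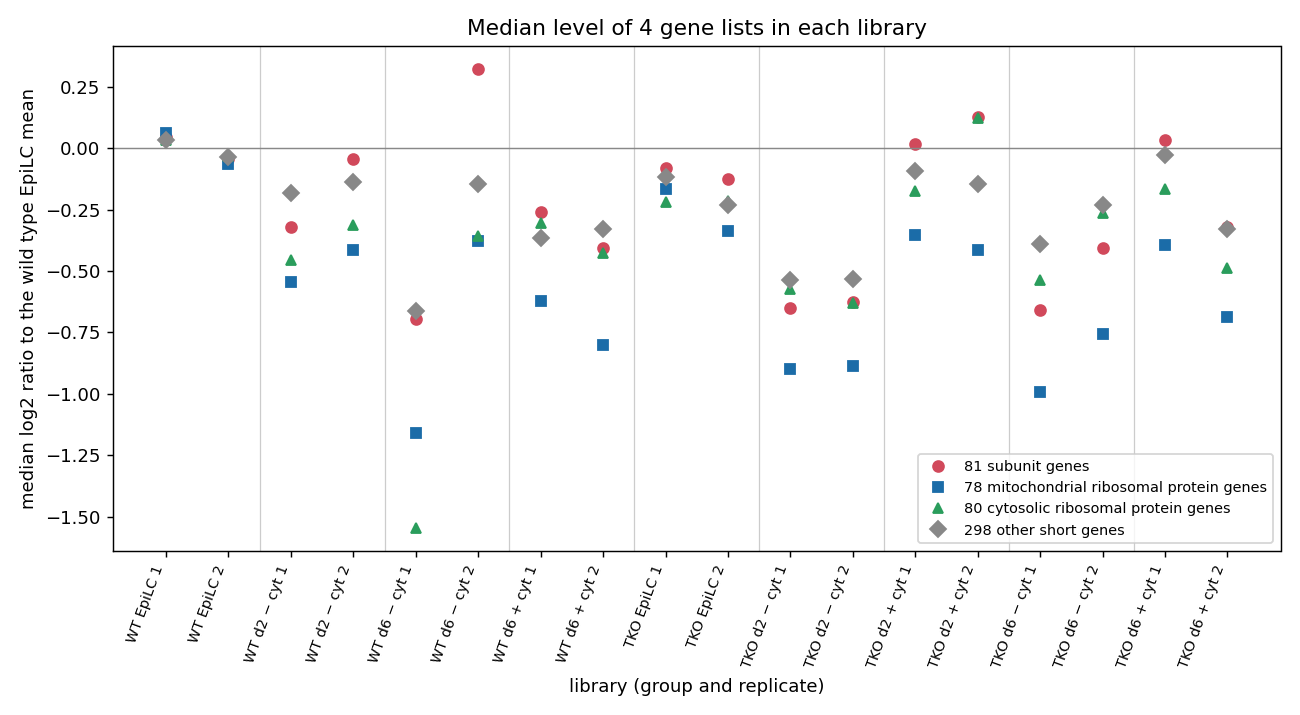
Median log2 ratio (vertical axis) to the wild-type EpiLC mean of the tested subunit genes, the mitochondrial and cytosolic ribosomal protein genes and 298 other short genes in each of the 18 libraries (horizontal axis). The subunit genes sit at -0.70 and 0.32 in the 2 wild-type day 6 libraries without cytokines, near -0.65 and -0.63 in TKO day 2 without cytokines, and at 0.02 and 0.13 in TKO day 2 with cytokines.

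**Figure D2:**
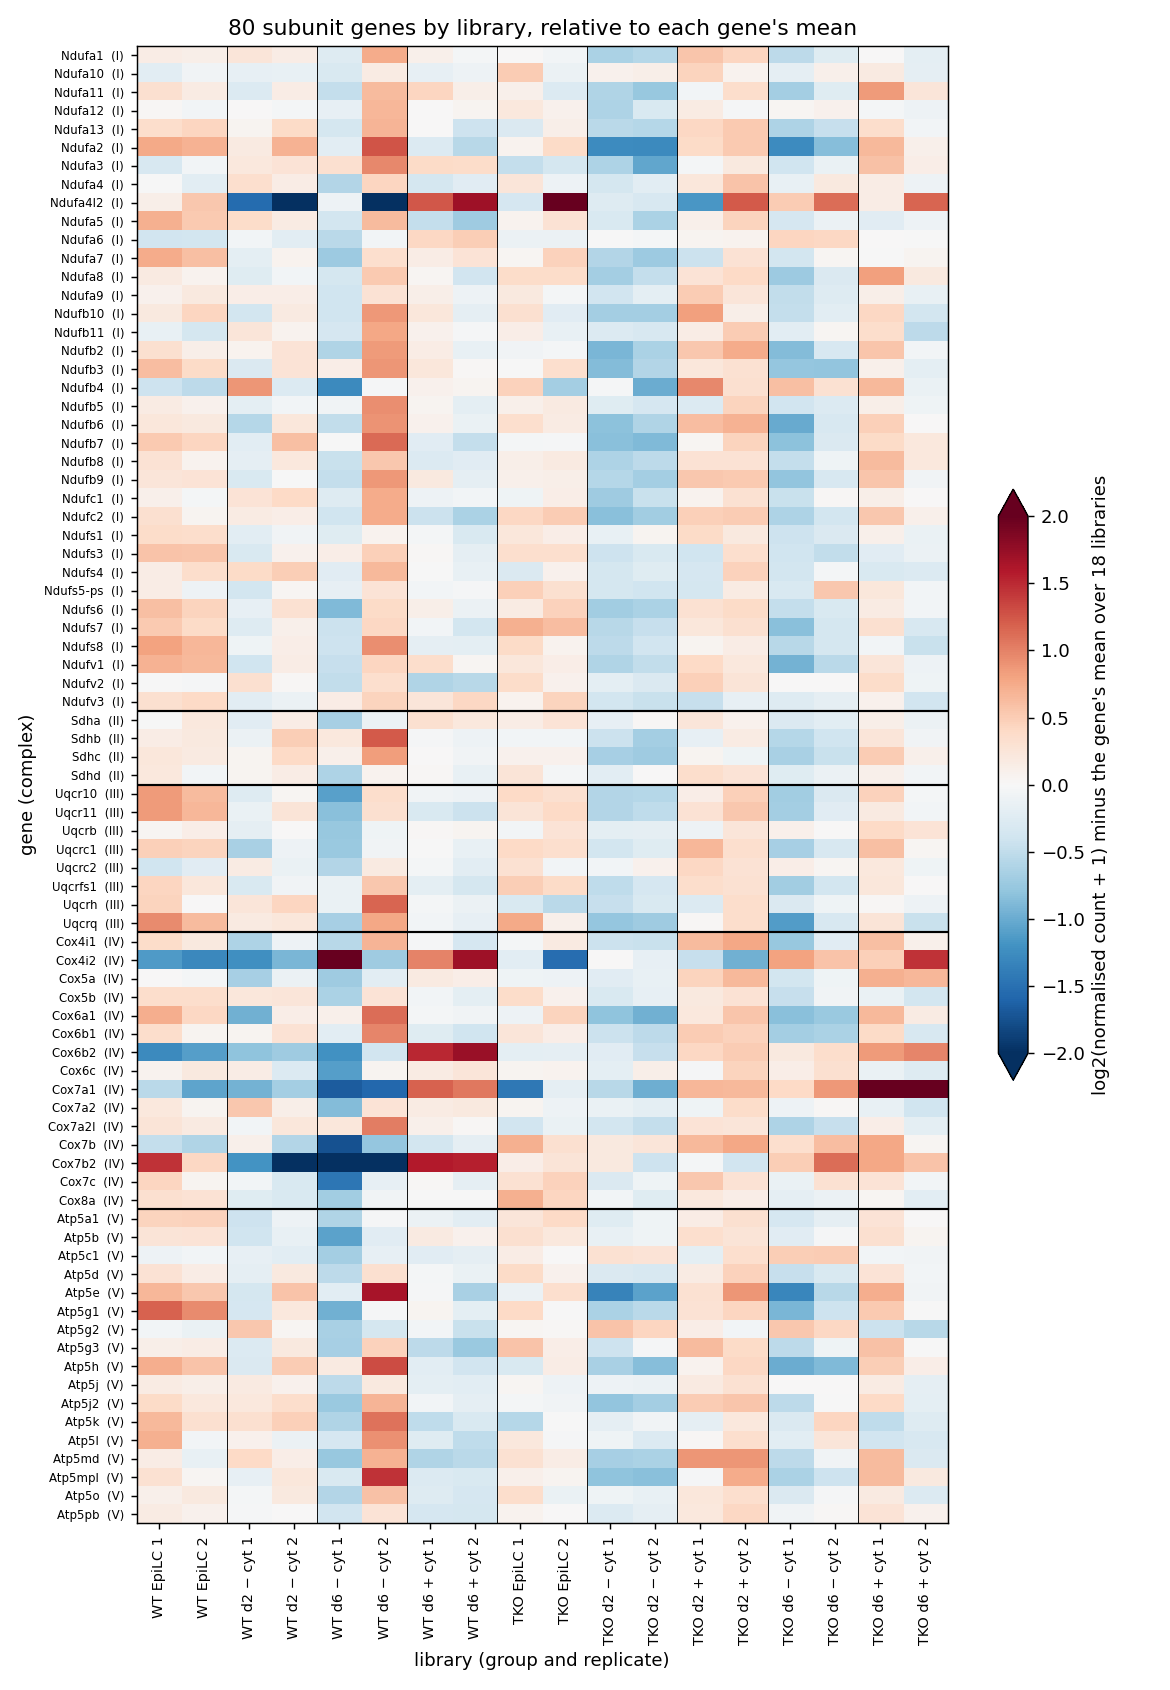
Level of 80 of the tested genes (rows, by complex) in each library (columns), as log2(normalised count + 1) minus the gene's mean over the 18 libraries. Most rows are low in TKO aggregates without cytokines and high in replicate 2 of wild-type day 6 without cytokines, while Cox6b2, Cox7a1, Cox7b2, Cox4i2 and Ndufa4l2 follow patterns of their own.

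The question of whether cytokines altered these genes in cells that lack TET proteins was addressed first at day 2. In TKO aggregates 16 of the 81 genes rose with cytokines and none fell, where 2.05% of all genes tested rose and 2.47% fell. The log2 fold change was positive for 77 of the 81 genes, with a median of 0.70, against a median of -0.03 over all genes. Complex I had 8 genes that rose (Ndufa1, Ndufa2, Ndufa3, Ndufa13, Ndufb2, Ndufb3, Ndufb6 and Ndufc2, all accessory subunits) and a median of 0.80. Complex III had Uqcrfs1 and a median of 0.80, complex IV had Cox5a, Cox6a1, Cox6b2 and Cox7a1 and a median of 0.62, complex V had Atp5e, Atp5j2 and Atp5md and a median of 0.55, and complex II had none and a median of 0.51. Of the 16, 12 changed by more than 1 on the log2 scale and none by more than 2, the limit used in the study.

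The largest change was that of Atp5e, a small subunit of the central stalk of ATP synthase. Atp5e was at 834.4 and 1009 normalised counts without cytokines and at 2612 and 3890 with them, so the groups did not overlap (log2 fold change 1.84 ± 0.49 SE, adjusted p = 0.0461). Ndufa2, an accessory subunit of complex I, was at 444.2 and 438.5 without and at 1381 and 1516 with cytokines (1.73 ± 0.36, adjusted p = 0.0145). TKO EpiLCs had 1945 and 2658 for Atp5e and 1111 and 1382 for Ndufa2, and neither gene passed between those and the cytokine libraries. At the lower end of the genes that rose, Uqcrfs1 went from 1003 and 1128 to 1805 and 1749 (0.76 ± 0.20, adjusted p = 0.0475). Cox5a, a common complex IV subunit, went from 1783 and 1888 to 2841 and 3284 (0.76 ± 0.20, adjusted p = 0.0437), and 41.7% of its exon sequence overlapped another annotated gene, Gm26631. Cox6a1 went from 1245 and 1125 to 2535 and 3225 (1.30 ± 0.35, adjusted p = 0.0477). The abundant catalytic subunits moved less: Atp5b was at 18660 and 19480 without and at 25980 and 24630 with cytokines (0.42 ± 0.23, adjusted p = 0.276), and Atp5a1 had a log2 fold change of 0.42 ± 0.20 (adjusted p = 0.224).

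Other gene lists moved in the same libraries. Mitochondrial ribosomal protein genes had 5 of 78 higher, none lower and a median log2 fold change of 0.56, cytosolic ribosomal protein genes 4 of 80 higher and 0.54, other short genes 21 of 298 higher, 1 lower and 0.49, and assembly factors of the complexes 4 of 43 higher and 0.49. The assembly factors of lowest adjusted p were Cox11 (0.85 ± 0.21, adjusted p = 0.0374), Timmdc1 (0.83 ± 0.21, adjusted p = 0.0407) and Atpaf1 (1.01 ± 0.26, adjusted p = 0.0416). The part of gene length and of the Rn45s share in the change of the subunit genes was not tested. With library size without Rn45s as the scale, a setting chosen after seeing the data, 6 genes rose and none fell, and with library size alone 5 rose and 2 fell. Leaving out any one of the 4 libraries left 0 of the 81 genes called, with 80 to 176 calls over all genes in place of 749, while the median stayed between 0.65 and 0.76. A model of only these 4 libraries called 53, and a model without the discordant wild-type day 6 pair, also chosen after seeing the data, called 49, all of them higher, and over all genes these models called 3072 and 2386.

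**Figure D3:**
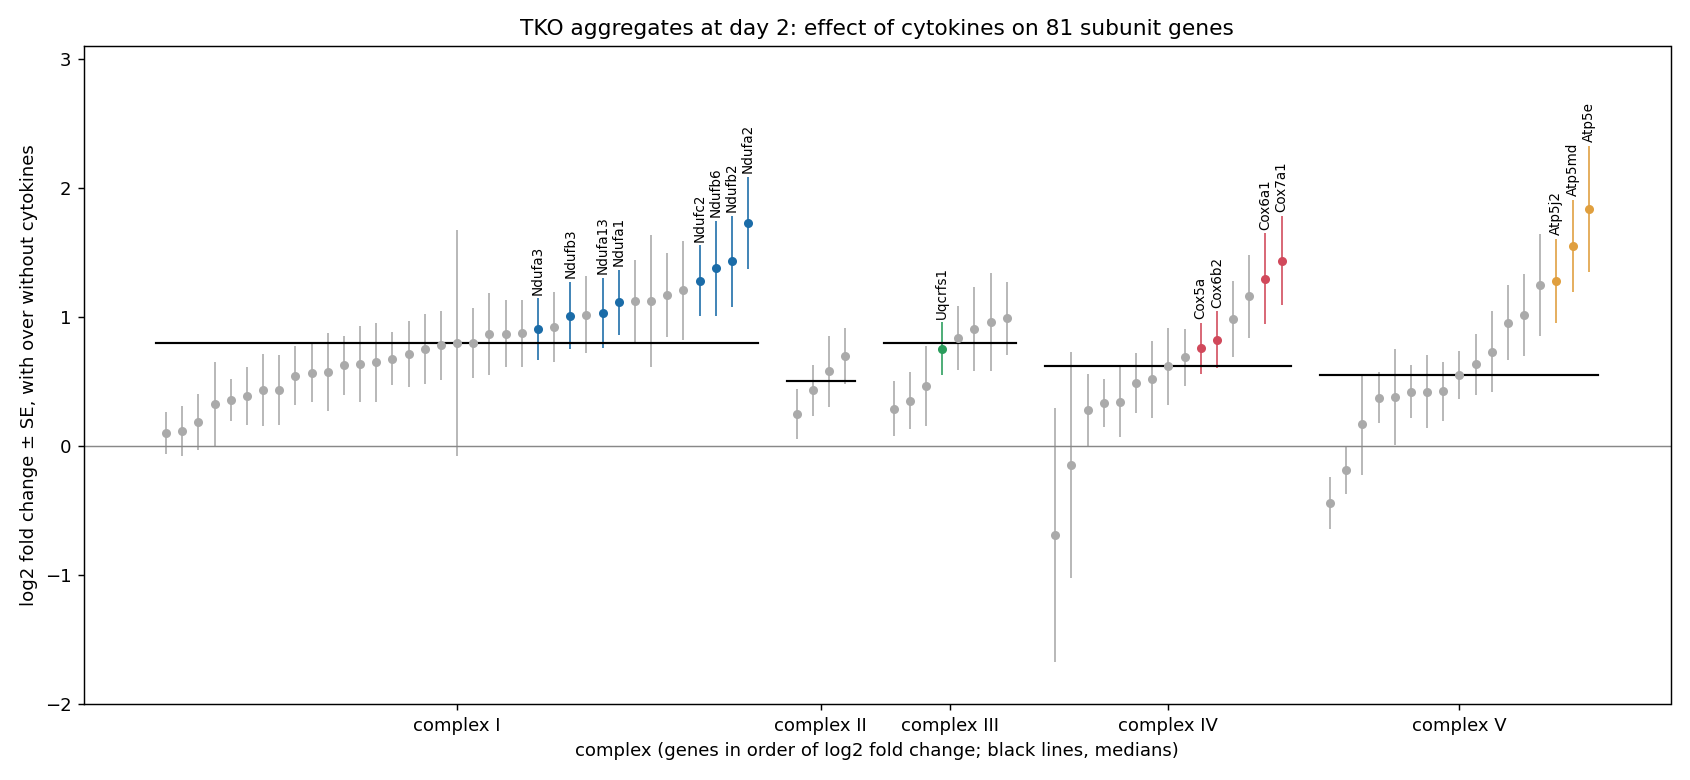
Log2 fold change with its standard error (vertical axis) of each tested gene in TKO day 2 aggregates with over without cytokines, grouped by complex (horizontal axis) with the median of each complex as a black line. Coloured and named points are the 16 genes with adjusted p below 0.05, and all 16 lie above 0.

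At day 6 the same comparison in TKO aggregates found 6 genes higher with cytokines and 1 lower, against 2.56% and 3.05% of all genes, with a median log2 fold change of 0.39. Cox7a1 rose most (157.2 and 218.3 to 727.4 and 545.3, log2 fold change 1.78 ± 0.33, adjusted p = 0.00715), followed by Ndufa2 (442.6 and 586.9 to 1665 and 1135, 1.46 ± 0.35, adjusted p = 0.027). Atp5h, Ndufa8, Cox5a and Sdhc, a membrane anchor of succinate dehydrogenase, also rose, Sdhc by 0.88 ± 0.22 (adjusted p = 0.0299). Atp5g2, one of 3 genes for the subunit of the ATP synthase c-ring, was the gene that fell, from 584.7 and 538.9 to 299 and 275.5 (-0.95 ± 0.20, adjusted p = 0.0137). The other c-ring genes did not pass at day 6. Scaling by library size alone turned the split to 1 higher and 4 lower, and library size without Rn45s gave 6 and 2. Leaving out TKO day 6 replicate 1 without or with cytokines left 0 calls, replicate 2 without cytokines left 1 and replicate 2 with cytokines left 4. DESeq2 called 13 higher and 2 lower, a fit of only these 4 libraries 21 and 2, and a fit without the discordant wild-type pair 28 and 3.

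The aggregates were also set against the TKO EpiLCs they came from. At day 2 without cytokines 15 genes were lower than in EpiLCs and none higher, against 8.52% of all genes lower and 10.1% higher, with a median of -0.58. Ndufa2 was the lowest (-1.51 ± 0.35, adjusted p = 0.00991), then Ndufc2 (1339 and 1423 to 558.4 and 620, -1.24 ± 0.27, adjusted p = 0.00665). The smallest of the called changes were those of Ndufs3 (-0.70 ± 0.23, adjusted p = 0.0417), a core subunit of complex I with 39.7% of its 50-base words also found in other genes, and Ndufv3 (-0.69 ± 0.19, adjusted p = 0.024). The core subunit Ndufs7 (-1.19 ± 0.27, adjusted p = 0.00823) and Uqcrfs1 (-0.87 ± 0.20, adjusted p = 0.00997) also fell. At day 2 with cytokines 2 genes were higher and none lower, against 7.88% and 6.39% of all genes, with a median of 0.16. These were Cox7a1 (1.35 ± 0.34, adjusted p = 0.0161) and Cox5a (0.65 ± 0.20, adjusted p = 0.0385). Both comparisons share the EpiLC libraries. Scaled by library size alone, the split without cytokines was 3 higher and 2 lower, while library size without Rn45s gave 1 and 8 without cytokines and 3 and 1 with them. Without cytokines, leaving out day 2 replicate 1 left 0 calls, day 2 replicate 2 left 1, EpiLC replicate 1 left 9 and EpiLC replicate 2 left 5, whereas 34 were called with only these 4 libraries and 40 without the discordant wild-type pair, all lower. With cytokines, leaving out either day 2 library left 0 and either EpiLC library left 1, while 9 were higher and 2 lower without the discordant pair.

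From day 2 to day 6 few of the genes changed in TKO aggregates. With cytokines Cox7a1 alone passed, going from 190.4 and 188.7 to 727.4 and 545.3 (1.75 ± 0.33, adjusted p = 0.00567), among 4.28% of all genes higher and 1.72% lower, and it no longer passed without either day 2 library or without day 6 replicate 1. Without cytokines edgeR called none of the 81, where 0.422% of all genes were higher and 0.0543% lower. In that comparison 5 of the 81 had an unadjusted p below 0.05, a limit that some genes pass without any change. DESeq2 called 1.

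**Figure D4:**
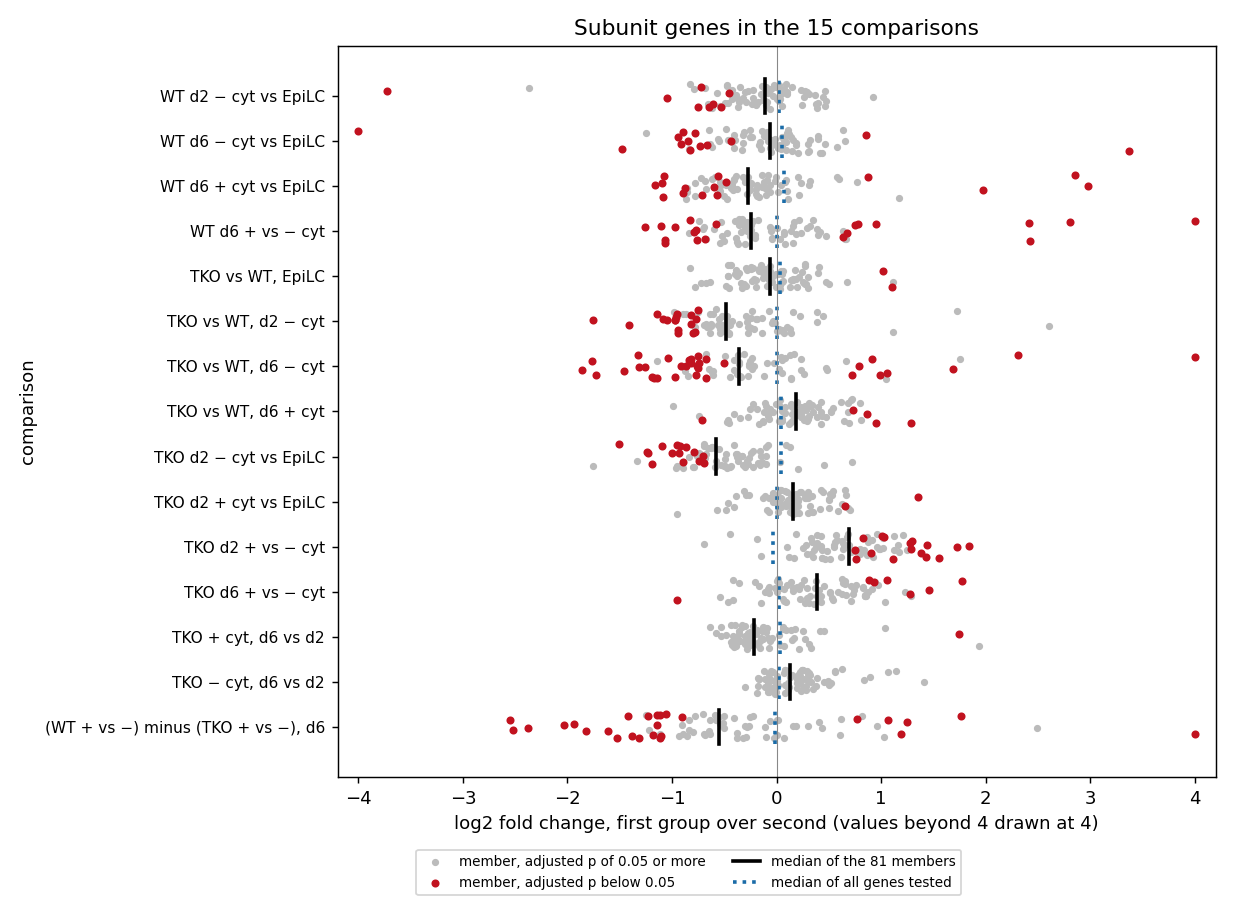
Log2 fold change (horizontal axis) of each tested gene in each of the 15 comparisons (vertical axis), with red points for adjusted p below 0.05, a black bar for the median of the 81 genes and a dotted bar for the median of all genes tested. The medians are lowest for TKO day 2 without cytokines against EpiLCs (-0.58) and highest for TKO day 2 with against without cytokines (0.70).

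In the wild type the aggregates were compared with EpiLCs in turn. At day 2 without cytokines 8 genes fell and none rose, against 15.7% of all genes lower and 18.6% higher, with a median of -0.11 against 0.02 over all genes. Atp5g1, the second of the c-ring genes, fell from 2524 and 2136 to 885.1 and 1285 (-1.05 ± 0.29, adjusted p = 0.011). Atp5a1 fell from 19360 and 19440 to 10620 and 13230 (-0.65 ± 0.20, adjusted p = 0.023). The core proteins Uqcrc1 (-0.75 ± 0.25, adjusted p = 0.028), Ndufv1 (-0.72 ± 0.26, adjusted p = 0.0424) and Ndufs3 (-0.61 ± 0.22, adjusted p = 0.0466) fell as well. Cox8a (-0.53 ± 0.18, adjusted p = 0.0363) and Ndufs1 (-0.45 ± 0.16, adjusted p = 0.0432) were the least changed of the called genes. Cox7b2 was called at 11.25 and 5.003 against 0.9748 and 0 normalised counts, which is close to the counting floor of 3. This direction depended on the scale: library size alone, under which the median of all genes shifted from 0.02 to 0.59, gave 20 higher and 1 lower with Cox8a at 0.05 and Ndufs1 at 0.12, and library size without Rn45s gave 4 and 2. Leaving out EpiLC replicate 1 left 0 calls, EpiLC replicate 2 left 2 and day 2 replicate 1 left 1. Fitted on only these 4 libraries, 2 genes were higher and 19 lower, and without the discordant day 6 pair 1 was higher and 18 lower.

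At day 6 without cytokines 11 genes were below EpiLCs and 2 above, against 29% and 31.7% of all genes, with a median of -0.06. Atp5g1 was again lower (570.3 and 1099, -1.48 ± 0.29, adjusted p = 0.000428). Ndufa3 was higher (599.8 and 941.5 against 383.9 and 465.3, 0.85 ± 0.24, adjusted p = 0.00533). Cox4i2, the lung isoform of subunit 4, was called higher (3.37 ± 0.91, adjusted p = 0.00472) on 54.85 normalised counts in replicate 1 against 4.632 in replicate 2, and it no longer passed without that replicate 1 or without EpiLC replicate 2. Cox7b2 had no counts in either library and was at least 8.32-fold lower than in EpiLCs, set against a floor of 3 counts over the group. The direction turned with the library: the median was 0.31 without replicate 1 and -0.70 without replicate 2. Leaving out EpiLC replicate 1 left 8 calls. Fitted on only these 4 libraries, 1 gene was called in place of 13, beside 7024 in place of 10064 over all genes. On the scale of library size alone 35 were higher and 2 lower, with Cox8a at 0.02 and Ndufs1 at 0.25, and library size without Rn45s gave 7 and 9.

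The sorted wild-type cells at day 6 with cytokines had 4 genes above and 11 below EpiLCs, against 22.4% and 18.2% of all genes, with a median of -0.28. The genes above were Cox6b2, Cox4i2, Cox7a1 and Ndufa6, an accessory subunit of complex I at 914.3 and 965.9 against 522.1 and 532.5 (0.88 ± 0.16, adjusted p = 0.000655). Of the 4 tested tissue isoforms of complex IV, 3 were therefore higher. None of the 10 common isoforms passed in either direction. The lowest were Ndufa5 (530.1 and 465.8 to 231.5 and 198.2, -1.17 ± 0.27, adjusted p = 0.00319) and Ndufa2 (-1.09 ± 0.34, adjusted p = 0.0202), and the complex I core subunits Ndufs8, Ndufs3 and Ndufs1 fell as well. Library size alone gave 7 higher and 3 lower, and library size without Rn45s 5 and 5. Leaving out EpiLC replicate 1 or 2 left 5 or 6 calls, and leaving out day 6 replicate 1 or 2 left 8 or 4. The count was higher in other fits: 23 by DESeq2, 30 without the discordant pair and 47 with only these 4 libraries, where all genes called were 7020, 7868 and 8983 in place of 6735.

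Between wild-type day 6 cells with and without cytokines 9 genes were higher and 11 lower, against 29.6% and 28.6% of all genes, with a median of -0.24. Cox7b2 was at 12.52 and 12.23 normalised counts with cytokines, at least 12.7-fold above the floor of 3 counts over the group without them, and Cox7a1 was at 271.9 and 248.4 against 37.17 and 39.37 (2.81 ± 0.36, adjusted p = 8.1e-06). Sdha, the flavoprotein of succinate dehydrogenase, was higher (3953 and 3642 against 1992 and 2917, 0.67 ± 0.20, adjusted p = 0.00881), while its iron-sulfur partner Sdhb was lower (1185 and 1122 against 1402 and 2824, -0.83 ± 0.27, adjusted p = 0.0161). Atp5b was higher with cytokines (0.75 ± 0.23, adjusted p = 0.011). Atp5e had the lowest value (-1.26 ± 0.48, adjusted p = 0.0342), but the groups overlapped and without replicate 2 of the group without cytokines its log2 fold change was -0.05. Atp5h, the next lowest (-1.11 ± 0.32, adjusted p = 0.00727), did not overlap between the groups. The median was -0.58 without replicate 1 of the group without cytokines and 0.36 without its replicate 2. It lay between these values when either library with cytokines was left out. With library size alone 4 were higher and 28 lower. Only 3 genes, all higher, were called in a fit of these 4 libraries alone and 10 when replicate numbers were crossed as a block in that fit, beside 6547 and 7319 in place of 9659 over all genes. Neural markers were lower and naive and PGC markers higher in the sorted cells for 12 of 12, 10 of 10 and 10 of 10 genes, and the part of cell makeup was not tested.

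Between TKO and wild-type EpiLCs 2 of the 81 genes were higher in TKO and none lower, against 7.57% and 3.18% of all genes, with a median of -0.06. The genes were Cox7b and Cox6b2, both of complex IV, which are described below. Leaving out either wild-type library left 0 calls and either TKO library left 1. A model without the discordant wild-type day 6 pair called 3 higher and 3 lower.

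At day 2 without cytokines TKO aggregates had 17 genes lower than the wild type and none higher, against 14.8% and 18% of all genes, with a median of -0.48 against 0.00 over all genes. Complex I had 11 of the 17, complex V had 4 and complex II had 2, Sdhb and Sdhc. Ndufa2 was lowest, at 444.2 and 438.5 against 1195 and 1708 (-1.75 ± 0.36, adjusted p = 0.00164), then Atp5e at 834.4 and 1009 against 1660 and 3118 (-1.41 ± 0.48, adjusted p = 0.0354). Sdhc was at 805.4 and 782.2 against 1336 and 1693 (-0.97 ± 0.22, adjusted p = 0.00341). The smallest called changes were those of Ndufa5 (-0.76 ± 0.27, adjusted p = 0.0431) and Ndufs4 (-0.78 ± 0.28, adjusted p = 0.0437). None of the 7 core subunits of complex I passed, although their median was -0.45. Mitochondrial ribosomal protein genes had 19 of 78 lower and 1 higher (median -0.52) and other short genes 76 of 298 lower and 47 higher (median -0.32), and naive markers were higher for 10 of 10 genes. With library size alone 1 was higher and 5 were lower. Leaving out TKO replicate 1 or 2 left 3 or 4 calls, wild-type replicate 2 left 4 and wild-type replicate 1 left 14, and all calls in these settings were lower in TKO. A model without the wild-type day 6 pair called 37 lower and 1 higher, and one of only these 4 libraries 40 and 2. Ndufa2 was called in each of the 13 alternatives run on it, with log2 fold changes of -2.01 to -1.47 and adjusted p of 2.93e-06 to 0.0195.

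At day 6 without cytokines 25 genes were lower in TKO and 8 higher, against 26.9% and 28.5% of all genes, with a median of -0.36. Complex I had 15 lower and 1 higher, complex IV 5 higher and 3 lower. Atp5e (852.8 and 1434 against 1830 and 6586, -1.86 ± 0.49, adjusted p = 0.00456) and Atp5h (801.1 and 869.6 against 1811 and 3956, -1.77 ± 0.32, adjusted p = 0.000298) were lowest, and 47.9% of the 50-base words of Atp5h occur in other genes. Cox7a1 was at 157.2 and 218.3 against 37.17 and 39.37 (2.31 ± 0.36, adjusted p = 6.9e-05), and Cox7b2 was at 5.384 and 8.834 against 0 in both wild-type libraries, at least 7.28-fold above the floor. The gamma subunit gene Atp5c1 (2435 and 2448 against 1084 and 1546, 0.91 ± 0.19, adjusted p = 0.000705) and Atp5g2 (0.99 ± 0.20, adjusted p = 0.00065) were higher. The balance again turned with the wild-type library left out: over the fits with each library left out, the median ran from -0.75 to 0.265. Leaving out TKO replicate 1 left 17 calls. A model of only these 4 libraries called 8, and library size alone gave 11 higher and 17 lower.

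At day 6 with cytokines, where the wild-type cells were sorted and the TKO aggregates whole, 4 genes were higher in TKO and 1 lower, against 11.3% and 7.53% of all genes, with a median of 0.19. Cox7a1 was higher (727.4 and 545.3 against 271.9 and 248.4, 1.29 ± 0.32, adjusted p = 0.0126), as were Atp5g3 (0.95 ± 0.31, adjusted p = 0.0468), Ndufc2 (0.86 ± 0.27, adjusted p = 0.0355) and the core subunit Ndufv2 (0.73 ± 0.23, adjusted p = 0.0354). Cox6b2 was lower (861.7 and 941.4 against 1361 and 1587, -0.71 ± 0.22, adjusted p = 0.0311). Leaving out either wild-type library or TKO replicate 1 left 0 calls, while DESeq2 called 8 and a fit of only these 4 libraries called 13 higher and 2 lower. Library size alone gave 1 higher and 1 lower, and library size without Rn45s 4 and 2.

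The cytokine effect at day 6 was then compared between the genotypes. For 26 genes the effect differed: it was lower in the wild type than in TKO for 20 and higher for 6, against 21% and 22% of all genes, with a median difference of -0.55. Complex I had 9 lower and 1 higher, complex II 2 lower, complex III 1 lower, complex IV 4 lower and 3 higher, and complex V 4 lower and 2 higher. The median difference was 0.01 without replicate 2 of the wild-type group without cytokines, and its lowest value with a library left out was -0.948. Leaving out TKO replicate 1 with or without cytokines left 16 or 17 calls, and leaving out wild-type cytokine replicate 2 left 17. A fit of only these groups called 4 higher and 12 lower. Library size alone gave 8 higher and 15 lower.

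The tissue isoforms of complex IV are described one by one. Cox6b2, the testis isoform of subunit 6b, was at 197.6 and 221.2 normalised counts in wild-type EpiLCs, 272.9 and 289.8 at day 2, 206.3 and 364.8 at day 6 without cytokines and 1361 and 1587 at day 6 with them. Cox6b2 in the sorted cells thus lay above all other libraries and passed against EpiLCs (log2 fold change 2.85 ± 0.23, adjusted p = 5.52e-07; 2.42 ± 0.23 over day 6 without cytokines, adjusted p = 3.45e-07). Both calls held in each of the 13 alternatives run on them, with adjusted p of at most 0.00604. In TKO cells Cox6b2 was at 415.7 and 420 in EpiLCs (1.02 ± 0.22 over wild-type EpiLCs, adjusted p = 0.0105), 408.9 and 344.8 at day 2 without and 638 and 681.4 with cytokines, and 549.2 and 610.8 at day 6 without and 861.7 and 941.4 with cytokines. The TKO libraries lay above those of the wild type in EpiLCs and in both aggregate groups without cytokines, and below them at day 6 with cytokines, with no overlap. The difference at day 2 did not pass (0.39 ± 0.22, adjusted p = 0.192 by edgeR for Cox6b2). Its common counterpart Cox6b1 ran from 1332 to 4191 over all libraries and was at 1786 and 1605 in the sorted cells, with a level per kilobase of 2740 there against 2250 for Cox6b2.

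Cox7a1, the muscle and heart isoform of subunit 7a, was at 81.93 and 57.26 in wild-type EpiLCs, 61.41 and 73.81 at day 2, 37.17 and 39.37 at day 6 without cytokines and 271.9 and 248.4 in the sorted cells (1.97 ± 0.35 over EpiLCs, adjusted p = 0.000421). In TKO it rose from 43.65 and 105.6 in EpiLCs to 190.4 and 188.7 at day 2 and 727.4 and 545.3 at day 6 with cytokines. Without cytokines it was at 80.95 and 60.07 at day 2 and at 157.2 and 218.3 at day 6. It was higher with cytokines in each comparison of that kind, at day 6 in the wild type and at days 2 and 6 in TKO. The common isoform gene Cox7a2 ran from 651.9 to 1734 and passed in none of the 15 comparisons. Striated muscle markers, which are the tissue background of Cox7a1, summed to 1290 and 1050 in TKO day 6 libraries with cytokines and to 2060 and 2500 in those without. That sum ran in the reverse order of Cox7a1, but the single markers went both ways. Actc1 was at a mean of 4.592 with and 701 without cytokines, whereas Myl4 was at 97.87 with and 32.28 without. Late male germ cell markers, the tissue background of Cox6b2, summed to 69.5 and 94.6 in the sorted cells and 78.7 and 92.3 in wild-type EpiLCs. Most of that sum came from a single gene, Ldhc, at a mean of 77.11 in the sorted cells and 78.95 in wild-type EpiLCs.

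The remaining isoforms were scarce. Cox4i2 was at 2.199 to 54.85 and Cox7b2 at 0 to 12.52 normalised counts, with Cox4i1 at 3001 to 8676 and Cox7b at 547.6 to 3151. In the sorted cells Cox4i2 was at 17.38 and 28.96 against 3.213 and 2.779 in wild-type EpiLCs (2.98 ± 0.92, adjusted p = 0.0176), and this call was lost without either EpiLC library or without replicate 2 of the sorted cells. Ndufa4l2, a hypoxia-linked paralogue of Ndufa4, differed widely between replicates, at 116.1 and 680.6 in TKO EpiLCs and at 136 and 11.58 in wild-type day 6 aggregates without cytokines. Of the 15 comparisons, Ndufa4l2 was called only between wild-type day 6 cells with and without cytokines (2.43 ± 0.88, adjusted p = 0.0278).

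**Figure D5:**
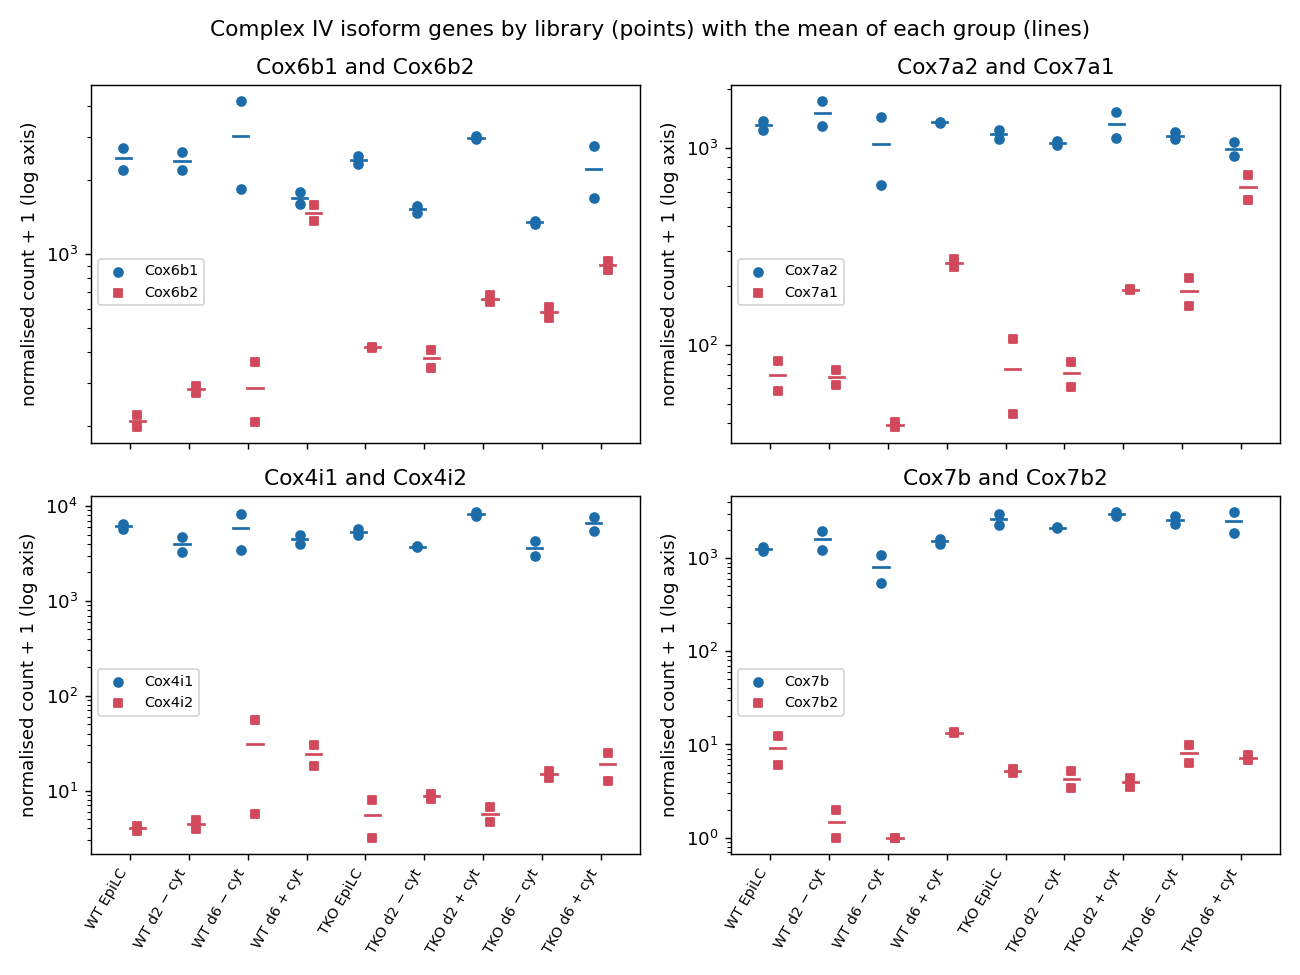
Normalised counts plus 1 (vertical log axis) of 4 pairs of complex IV isoform genes in each library, with lines for the mean of each group (horizontal axis). Cox6b2 is highest in the sorted wild-type cells at 1361 and 1587, and Cox7a1 is highest in TKO day 6 aggregates with cytokines at 727.4 and 545.3.

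The genes of the set on the X chromosome were Ndufa1, Ndufb11 and Cox7b. Cox7b, a common complex IV subunit, was at 1317 and 1209 normalised counts in wild-type EpiLCs and at 3019 and 2297 in TKO EpiLCs (1.10 ± 0.30, adjusted p = 0.0292). It lay between 1886 and 3151 in all 10 TKO libraries and between 547.6 and 1965 in the 8 wild-type libraries, so the ranges overlapped. The genotype difference of Cox7b also passed at day 6 without cytokines (1.69 ± 0.30, adjusted p = 0.00026), and not at day 2 without cytokines (0.39 ± 0.30, adjusted p = 0.335) or at day 6 with them (0.73 ± 0.30, adjusted p = 0.101). Among all 615 X-linked genes tested in EpiLCs 154 were higher in TKO, 17 were lower and the median log2 fold change was 0.57, against 0.04 over all genes. The 8 tested genes nearest to Cox7b had a median of 0.74, with 2 called higher, whereas those nearest to Ndufa1 and Ndufb11 had medians of -0.50 and -0.11. Ndufa1 itself was at 341.3 and 327.7 against 379.1 and 369.7 in EpiLCs (-0.13 ± 0.25, adjusted p = 0.79), and Ndufb11 had 0.28 ± 0.31 (adjusted p = 0.613). With library size alone the value for Ndufa1 was 0.17. The part of X dosage in the level of Cox7b was not tested.

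By role, the 7 core subunits of complex I were called lower in part of the comparisons, given here with the share of all genes lower. Against EpiLCs 3 were lower at wild-type day 2 (15.7%), 4 at wild-type day 6 with cytokines (18.2%) and 2 at TKO day 2 without cytokines (8.52%). In TKO against the wild type at day 6 without cytokines 4 were lower (26.9%), in the comparison whose balance turned with the wild-type library. The only core subunit called higher anywhere was Ndufv2, in TKO at day 6 with cytokines. Of the complex II genes Sdhd passed in no comparison and Sdha in one. Of the complex III core genes Uqcrc2 passed in none, Uqcrc1 was lower at days 2 and 6 without cytokines in the wild type, and Uqcrfs1 was called in 5 of the 15. Among the 5 genes of the ATP synthase head, Atp5d passed in no comparison and Atp5a1 was lower than in EpiLCs at each of the 3 wild-type stages. The 3 c-ring genes, which encode the same mature protein, moved separately: Atp5g1 was lower than in EpiLCs at each wild-type stage, Atp5g2 fell with cytokines in TKO at day 6, and Atp5g3 was called in TKO over the wild type at day 6 with cytokines and in the comparison of cytokine effects.

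The wider pathway did not follow the subunit genes in every comparison. In TKO at day 2 with against without cytokines the citric acid cycle list had 1 of 13 genes higher (median 0.29), electron carriers 1 of 15 higher (0.51), mitochondrial genome expression 0 of 11 (0.18), glycolysis 0 of 22 (0.07) and the hypoxia response 0 of 14 (0.09). The biogenesis regulators had 2 of 11 lower and none higher, namely Ppargc1a, at a mean of 0 against 18.84 normalised counts, and Esrrg at 1.754 against 26.79. In TKO against the wild type at day 2 without cytokines 7 of 43 assembly factors were lower and none higher (median -0.41), and at day 6 without cytokines 16 were lower and 3 higher (-0.46). Over all genes 14.8% were lower and 18% higher at day 2, and 26.9% and 28.5% at day 6. The day 6 values use the discordant wild-type pair. At wild-type day 6 without cytokines against EpiLCs, glycolysis had 16 of 22 lower and 1 higher (-1.03) and mitochondrial genome expression 8 of 11 lower (-1.05). Cytosolic ribosomal proteins had 51 of 80 lower (-0.81) and mitochondrial ribosomal proteins 42 of 78 lower and 2 higher (-0.69). The subunit genes had a median of -0.06, and over all genes 29% were lower and 31.7% higher. All of these values rest on the discordant pair. Against the EpiLC mean, the subunit median was -0.696 in replicate 1 and 0.323 in replicate 2. The cytosolic ribosomal median was -1.545 and -0.359 in that order, and the mitochondrial ribosomal median -1.158 and -0.379.

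Of the 88 genes, 7 failed the filter, 4 of complex IV and 3 of complex I. Cox6a2 and Cox8b, muscle isoforms, had 26 and 41 counts in all 18 libraries together, and the testis-linked Cox8c had 50, of which at most 14 lay in one library. The pseudogenes Ndufa11b, Cox7c-ps1 and Ndufb4c had 55, 51 and 7. Ndufs5, a complex I subunit gene, was listed with 2 counts in all, whereas the pseudogene entry Ndufs5-ps had 73.29 to 141.3 normalised counts in each library. The sequence of Ndufs5 shares 31.1% of its 50-base words with another gene, and reads that map to several places were not counted. Uqcrb, with 43.4% of its words shared, was at a mean of 639.47 normalised counts in wild-type EpiLCs. The cause of the low count of Ndufs5 was not tested. Where the sharing of words was high, the levels are uncertain. Among tested genes it was 89.8% for Atp5o, 84.8% for Atp5l, 47.9% for Atp5h and 43.4% for Uqcrb. It was 39.7% for Ndufs3, 38.7% for Atp5pb and 37% for Ndufb4. The exons of Atp5o were 100% overlapped by other entries, of which one had the same name, so its sharing may be with itself. The counting without strand also leaves levels uncertain where genes overlap, such as Ndufb2, with 50.3% of its exon sequence shared. Overlaps, shared words and exon lengths came from the GENCODE annotation, whereas the reads were counted on refGene.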

How the data were processed

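The deposited values were whole-number counts per gene, made by the authors with Trim Galore 0.5.0, cutadapt 1.16, STAR 2.7.1a and featureCounts (Subread 1.5.2) on the mm10 refGene annotation, without strand or multi-mapping reads. A total of 33 rows without values was left out. Counts were fitted with edgeR 4.0.16 (quasi-likelihood test, R 4.3.3, limma 3.58.1) in 1 model of 9 group means with TMM factors and filterByExpr, and p-values were adjusted by Benjamini and Hochberg over 16582 genes. A gene was called at adjusted p below 0.05. "Rose", "fell", "higher" and "lower" refer to such calls, and ± after a log2 fold change is its standard error. Normalised counts are counts divided by DESeq2 1.42.0 size factors. Library totals of 11286050 to 41257861 set the precision, with 0.222 as the root of the common dispersion. Intervals and floors cover counting error only. The fit was checked on simulated counts.

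The members follow a rule on symbols that uses no measured value, but the gene family and the lists were chosen with earlier results of these data known. Named genes are the core subunits, isoform pairs, F1 and c-ring genes, the 2 called members with the highest and the 2 with the lowest log2 fold change in each comparison, X-linked members and those that failed the filter. From other lists at most 3 genes are named. A member is not reported here by name. Values of other members were added after they were seen. Alternatives were RLE factors, library size, filters, DESeq2, a replicate block, fits restricted to the compared groups and each library left out. Library size without Rn45s, a crossed block and a model without the wild-type day 6 group without cytokines were chosen after seeing the data. Promoter sequences came from RefSeq (GRCm38.p6), which held 68 of the 88 genes.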

Additional observations from a re-analysis of the deposited data

Results flagged for a closer look

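The change with cytokines at day 6 differed between wild-type and TKO cells for the genes below, by the interaction term of the edgeR fit across all genes with Benjamini-Hochberg adjustment. Each value is the log2 change in the wild type minus that in TKO. Over all genes this difference was called lower for 21% and higher for 22%. The value was -2.55 for Atp5e (adjusted p = 0.00717, with -1.26 in the wild type and 1.29 in TKO). For Atp5e the change in TKO did not itself pass (adjusted p = 0.127). Its difference was -1.335 without replicate 2 of the wild-type group without cytokines. The value was -2.53 for Ndufa2 (adjusted p = 0.000814, with -1.07 and 1.46) and -1.602 without that replicate 2. Other genes with a lower wild-type change included Cox6a1 at -1.94, Cox6b1 at -1.53, Sdhb at -1.42, Sdhc at -1.38, Atp5g3 at -1.23, Cox4i1 at -1.18 and Uqcrfs1 at -1.14. Genes with a higher wild-type change included Atp5c1 at 0.77, Cox6c at 1.07, Atp5g2 at 1.25 and Cox6b2 at 1.77 (adjusted p = 0.00033; 2.42 and 0.65). The value for Cox7b2 was 6.94, and it depends on the prior count because both wild-type libraries without cytokines were at 0. Without replicate 1 of that group Atp5c1 (0.53, adjusted p = 0.0873) and Cox6c (0.59, adjusted p = 0.104) no longer passed, and without its replicate 2 Atp5g3 (-0.55, adjusted p = 0.226) and Cox4i1 (-0.42, adjusted p = 0.325) no longer passed. The wild-type cells with cytokines were sorted and the TKO aggregates were not, so sorting and genotype cannot be told apart here.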

How the results depend on the processing

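With 2 libraries a group, the counts of called genes changed with the libraries in the fit. Calls over all genes also fell in every comparison for at least some dropped library. A loss of calls with a dropped library was therefore not particular to the subunit genes. DESeq2 kept every call of a single gene, and RLE factors, a mean CPM of at least 1 and the replicate block moved no count by over 1.5 times. Correlations of the deviations of same-numbered samples ran from -0.156 to 0.182 over the comparisons and were of both signs, and with 2 samples a group and no label that ties the numbers to a shared source the numbers were not taken to pair them; the replicate block gave 13 calls in place of 16 in TKO at day 2 with against without cytokines, and it lost 6 calls of single genes in all. A crossed replicate block for wild-type day 6 with against without cytokines gave 10 calls.

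In the order wild-type day 2, day 6 without and day 6 with cytokines against EpiLCs, then wild-type day 6 with against without, a model of only the libraries compared called 21, 1, 47 and 3. For TKO against wild type it called 42 at day 2, 8 at day 6 without and 15 at day 6 with cytokines. For TKO it called 34 at day 2 without cytokines against EpiLCs, 53 and 23 for cytokines at days 2 and 6, and 5 for day 6 against day 2 without cytokines, and 16 for the genotype difference in cytokine effect. In the same order and fits the calls over all genes were 6684, 7024, 8983 and 6547 in place of 5696, 10064, 6735 and 9659; 6771, 5784 and 3974 in place of 5447, 9188 and 3127; and 3370, 3072, 1886, 1148 and 5645 in place of 3095, 749, 931, 79 and 7115. Without the wild-type day 6 group without cytokines the counts were 19 and 30 for wild-type day 2 and day 6 with cytokines against EpiLCs, 6, 38 and 15 for TKO against wild type in EpiLCs, at day 2 and at day 6 with cytokines, 40 and 11 for TKO day 2 without and with cytokines against EpiLCs, 49 and 31 for cytokines in TKO at days 2 and 6, and 2 and 1 for TKO day 6 against day 2 with and without cytokines. Over all genes these fits called 6858, 7868, 2955, 6696, 4456, 4732, 3479, 2386, 2210, 1953 and 200. DESeq2 called 14 and 23 for wild-type day 2 and day 6 with cytokines against EpiLCs, 8 for TKO against wild type at day 6 with cytokines, 4 for TKO day 2 with cytokines against EpiLCs, 32 and 15 for cytokines in TKO at days 2 and 6, and 1 for TKO day 6 against day 2 without cytokines, beside 6124, 7020, 3668, 2880, 1513, 1569 and 245 over all genes. With no filter on low counts the numbers were 26 and 10 for TKO against wild type at day 2 and at day 6 with cytokines, 28 for TKO day 2 without cytokines against EpiLCs, 37 and 20 for cytokines in TKO, and 1 for TKO day 6 against day 2 without cytokines, beside 5502, 3275, 3430, 1417, 1355 and 230 over all genes.

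Library size alone gave 21, 37 and 32 calls for wild-type day 2 and day 6 without cytokines against EpiLCs and for wild-type day 6 with against without, 6 and 2 for TKO against wild type at day 2 and at day 6 with cytokines, 5 for TKO day 2 without cytokines against EpiLCs and 7 for cytokines in TKO at day 2, beside 7541, 10524, 9481, 5088, 2723, 5024 and 2772 over all genes. It reversed Cox8a (0.045 at day 2 and 0.024 at day 6) and Ndufs1 (0.12 and 0.25) in the wild type against EpiLCs, and Ndufa1 between EpiLCs (0.17). Library size without Rn45s gave 9 and 4 for TKO day 2 without and with cytokines against EpiLCs and 6 for cytokines in TKO at day 2, beside 3071, 2332 and 808 over all genes. Without replicate 2 of wild-type day 6 without cytokines, Atp5mpl reversed to 0.069, against -1.699 without replicate 1, in wild-type day 6 with against without cytokines. The cause of these changes was not tested.

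When each library was dropped in turn there were 0 to 8 calls for wild-type day 2 against EpiLCs, 8 to 49 for day 6 without and 4 to 8 for day 6 with cytokines against EpiLCs, and 8 to 47 for wild-type day 6 with against without. For TKO against wild type the ranges were 0 to 1 in EpiLCs, 3 to 14 at day 2, 17 to 58 at day 6 without and 0 to 6 at day 6 with cytokines. For TKO they were 0 to 9 and 0 to 1 at day 2 without and with cytokines against EpiLCs, 0 to 0 and 0 to 4 for cytokines at days 2 and 6, 0 to 1 and 0 to 0 for day 6 against day 2 with and without cytokines, and 16 to 52 for the genotype difference in cytokine effect.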
